A study of Mus musculus with 18 samples.

Results

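The 9 posterior Hox genes and the T-box gene Tbx2 were followed through RNA-seq of TRAMP mouse prostate, 10 genes of the 55469 gene IDs in the authors' tables. The genes were Hoxa9, Hoxa10, Hoxa11 and Hoxa13 of the HoxA cluster, Hoxb13 of the HoxB cluster, Hoxd9, Hoxd10, Hoxd11 and Hoxd13 of the HoxD cluster, and Tbx2. The Hox genes were listed as genes of positional identity in the prostate and seminal vesicle. Tbx2 was chosen by its measured level, which was higher in both mutant lines than in controls at 10 weeks, so the 10-week differences below are a description and were not tested. All 10 symbols matched 1 gene ID each in every table, and all 10 were measured in all 18 libraries.

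The study asked how mutation of Elac2, which encodes the nuclease that trims the 3′ ends of precursor tRNAs, alters tumours of the prostate. All 18 mice were male, were recorded under the strain name C56NL/6N and carried 1 copy of TRAMP (TRAMP +/-), a transgene in which the probasin promoter drives the SV40 T antigens in prostate epithelium. WT-TRAMP mice were ELAC2+/+. KO-TRAMP mice had lost exon 8 of Elac2 in the prostate only, through Pb-Cre, and A537T-TRAMP mice were homozygous for the A537T change of ELAC2 in the whole body. The 3 lines were sampled when mice were 10 or 30 weeks old, with 3 animals in each group, from the ventral and lateral lobes after the seminal vesicles, bladder, urethra and fat had been dissected away. Libraries are called by the numbers in the table headers. At 10 weeks WT-TRAMP had libraries 1, 2 and 3, A537T-TRAMP 4, 5 and 6, and KO-TRAMP 7, 8 and 9. At 30 weeks WT-TRAMP had libraries 10, 11 and 12, A537T-TRAMP 13, 14 and 15, and KO-TRAMP 16, 17 and 18. The line of a library was read from the name of its table and from which columns both tables of an age share.

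Hox genes encode homeodomain transcription factors that lie in 4 clusters, and their order along a cluster follows the order of their expression along the body axis, so that the members numbered 9 to 13 mark its posterior end. The prostate arises from the urogenital sinus, whereas the seminal vesicle arises from the mesonephric duct, and posterior Hox genes take part in setting the identity of both. Hoxb13 is known as a marker of prostate epithelium. Tbx2 is a T-box repressor known for silencing cell cycle inhibitors such as Cdkn1a and Cdkn2a.

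The HoxD members lie in one stretch of chromosome 2 on the plus strand, with Hoxd13 at 74668310 to 74671599, Hoxd11 at 74679557 to 74687016, Hoxd10 at 74691924 to 74695105 and Hoxd9 at 74697727 to 74700208 (GRCm38). The HoxA members lie on the minus strand of chromosome 6, with Hoxa9 at 52223100 to 52231089, Hoxa10 at 52231197 to 52240854, Hoxa11 at 52242106 to 52245810 and Hoxa13 at 52257694 to 52260880. Hoxb13 (96194316 to 96197447) and Tbx2 (85832551 to 85841948) both lie on the plus strand of chromosome 11. All 10 are protein-coding genes. The start-site sequences of the 4 HoxD members are shown here because these genes were high together in the same libraries, as described below. Each run covers 250 bases before to 50 after a start site, on the plus strand of RefSeq's GRCm38.p6, with every CG dinucleotide in capitals.
Hoxd13 (chr2:74667975-74668274): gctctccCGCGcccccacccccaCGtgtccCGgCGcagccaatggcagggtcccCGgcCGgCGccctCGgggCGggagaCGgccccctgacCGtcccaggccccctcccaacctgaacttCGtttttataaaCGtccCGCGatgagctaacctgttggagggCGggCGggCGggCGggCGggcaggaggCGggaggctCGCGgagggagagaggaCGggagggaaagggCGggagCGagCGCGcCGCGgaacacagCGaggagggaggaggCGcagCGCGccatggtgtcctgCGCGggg
Hoxd11 (chr2:74682073-74682372): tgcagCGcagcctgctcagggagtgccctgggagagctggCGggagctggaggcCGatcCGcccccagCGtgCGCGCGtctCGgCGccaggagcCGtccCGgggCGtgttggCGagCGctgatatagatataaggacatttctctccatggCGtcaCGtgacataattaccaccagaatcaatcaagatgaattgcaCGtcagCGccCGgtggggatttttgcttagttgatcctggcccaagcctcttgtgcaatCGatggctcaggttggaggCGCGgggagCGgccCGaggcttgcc
Hoxd10 (chr2:74691641-74691940): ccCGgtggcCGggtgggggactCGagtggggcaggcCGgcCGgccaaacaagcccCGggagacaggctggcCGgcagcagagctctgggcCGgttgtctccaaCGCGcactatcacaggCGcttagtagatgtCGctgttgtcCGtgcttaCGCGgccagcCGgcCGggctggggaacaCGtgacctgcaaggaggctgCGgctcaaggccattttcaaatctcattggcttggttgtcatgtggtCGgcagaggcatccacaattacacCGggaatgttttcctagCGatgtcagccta
Hoxd9 (chr2:74697513-74697812): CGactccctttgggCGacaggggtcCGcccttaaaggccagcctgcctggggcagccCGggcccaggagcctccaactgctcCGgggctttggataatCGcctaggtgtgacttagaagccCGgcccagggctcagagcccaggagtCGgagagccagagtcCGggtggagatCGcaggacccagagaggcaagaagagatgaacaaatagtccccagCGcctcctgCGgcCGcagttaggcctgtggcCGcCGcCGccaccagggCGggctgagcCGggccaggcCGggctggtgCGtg
These windows held 37 CG dinucleotides for Hoxd13, 25 for Hoxd11, 22 for Hoxd10 and 20 for Hoxd9. Over all 32851 windows of 300 bases in the RefSeq table the median was 7, with 10th and 90th percentiles of 1 and 31. An upstream Hoxd11 window held 4, and the 5 windows of the HoxA members held between 4 (Hoxa9) and 45 (Hoxa13). The T-box motif AGGTGTGA, searched on both strands, occurred in the Hoxd9 window and in no other of the 10 windows, against 1.28% of all windows. The letters TATAAA, also searched on both strands, occurred in the Hoxd13 window and in 1 of the Hoxa10 windows, against 13.6% of all windows. RefSeq windows were found for 8 of the 10 genes, the others being Hoxb13 and Tbx2.

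Libraries held between 9380174 and 14830104 recovered reads. The targeted gene Elac2 was measured at 21.5 to 27.3 RPM (reads of a gene scaled to the library's total) in KO-TRAMP and 22.0 to 31.4 RPM in WT-TRAMP libraries, and its gene-level count does not resolve exon 8. Libraries 12 and 18 stood apart in being close to weighted sums of the other libraries of their groups. Over 12490 genes, library 12 was nearest to 0.452 of library 10 plus 0.543 of library 11, and library 18 to 0.3997 of library 16 plus 0.598 of library 17. The median squared residual was 1.22 and 1.24 times the counting variance in these cases, against 2.26 to 8.47 for the other 16 libraries rebuilt from the other members of their groups. Of 896 genes that differed at least 4-fold between libraries 16 and 17, 98.5% lay between them in library 18. Why these libraries lie between the others was not tested, and the 30-week differences are therefore also given without them.

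**Figure D1:**
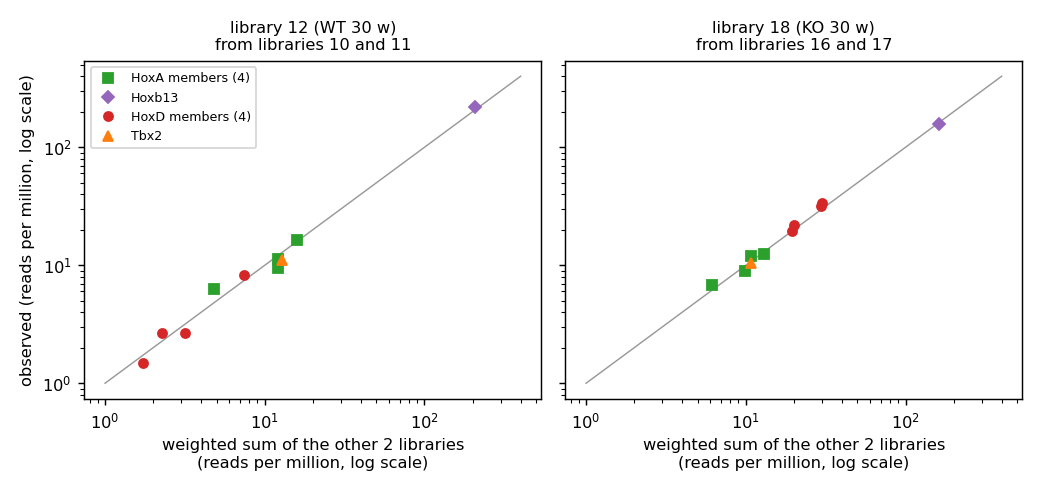
Level of each member in libraries 12 and 18 (vertical, RPM, log scale) against the weighted sum of the other libraries of the same group (horizontal, RPM, log scale), with the line of equality. The ratio of observed to summed level ran from 0.781 to 1.30 in library 12 and from 0.897 to 1.11 in library 18 over the 10 members.

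Markers of other tissues also differed between libraries. The summed reads of 9 seminal vesicle secretory genes (Svs1 to Svs6, with Svs3a and Svs3b, and Pate4 and Sva) made up 9.05% of library 5, 1.26% of library 6 and 1.63% of library 9 at 10 weeks, against 0.000183% to 0.000459% in WT-TRAMP. At 30 weeks they made up 4.35% and 1.90% of the WT-TRAMP libraries 10 and 12, 5.45% and 2.65% of the A537T-TRAMP libraries 13 and 15, and at most 0.267% of a KO-TRAMP library. Up to 5 of the 9 genes were at 0 in a WT-TRAMP library at 10 weeks, among them Sva in all 3. None of the 9 genes was called by limma, edgeR or DESeq2 at 30 weeks or had an unadjusted p under 0.05 by limma in either line. The part of seminal vesicle tissue in the results below was not tested. In KO-TRAMP at 30 weeks 10 fibroblast matrix genes summed to 0.201% to 0.240% of reads, against 0.0487% to 0.0554% in WT-TRAMP. Of the 10, limma called 5, edgeR 2 and DESeq2 8, beside 0.213%, 0.0888% and 4.77% of all genes. Limma called 0 genes at all in this comparison without library 10, 12 or 18. In A537T-TRAMP of that age the 10 genes summed to 0.0744% to 0.125%, with 0 called by limma or edgeR and 4 by DESeq2. Fat markers (6 genes) summed to 0.000436% to 0.00448% in KO-TRAMP against 0.00357% to 0.0113% in WT-TRAMP. Of the 5 tested, limma called 1, edgeR 0 and DESeq2 3. In A537T-TRAMP they summed to less, 0.000240% to 0.000926%. There limma and edgeR called 0 of the 5 tested and DESeq2 called 5, beside 1.02% of all genes. In bulk tissue, fewer cells of a type and less RNA per cell cannot be told apart.

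Per base of exon, Hoxb13 was the highest of the members, and Hoxd9, Hoxd10 and Hoxd11 were the lowest. The median over the 18 libraries was 114 RPKM (RPM per kilobase of exon) for Hoxb13 (30.6 to 192), 5.14 RPKM for Hoxa13 (3.61 to 8.50) and 4.59 RPKM for Hoxa10 (2.59 to 6.37). Tbx2 followed at 2.18 RPKM (0.176 to 26.9), then Hoxa11 at 2.13, Hoxd13 at 2.05 and Hoxa9 at 2.01 RPKM. Hoxd10, Hoxd9 and Hoxd11 were lowest at 0.876, 0.732 and 0.598 RPKM. Apart from Hoxb13, the ranges of neighbours in this order overlapped. The members differed more in how far they varied: the highest library exceeded the lowest 153-fold for Tbx2, 39.1-fold for Hoxd11, 34.2-fold for Hoxd10 and 21.4-fold for Hoxd13, but 6.28-fold for Hoxb13, 5.10-fold for Hoxa9, 5.003-fold for Hoxa11, 2.46-fold for Hoxa10 and 2.35-fold for Hoxa13. Hoxd9 ran from 0 in 2 libraries to 32.8 RPM, so it has no such ratio. Levels in RPM and RPKM are scaled to each library's own total and are set side by side across tables without a test.

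The HoxA members varied less than the HoxD members across lines and ages. Hoxa13, the most posterior gene of the cluster, was at 14.8, 21.0 and 15.6 RPM in WT-TRAMP libraries 1 to 3, at 15.2, 10.3 and 19.4 RPM in A537T-TRAMP and at 15.5, 14.8 and 17.1 RPM in KO-TRAMP at 10 weeks. At 30 weeks it was at 12.0, 12.3 and 9.43 RPM in WT-TRAMP, 10.1, 13.1 and 9.68 RPM in A537T-TRAMP and 10.6, 9.58 and 8.93 RPM in KO-TRAMP. The lines overlapped at both ages. Hoxa10 ranged from 8.48 to 18.5 RPM over the 9 libraries of 10 weeks and from 10.6 RPM (library 17) to 20.8 RPM (library 14) at 30 weeks, also with the lines overlapping. Hoxa11 ranged from 1.68 RPM (library 1) to 5.71 RPM (library 5) at 10 weeks and from 4.66 RPM (library 11) to 8.41 RPM (library 13) at 30 weeks.

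Hoxa9 was the HoxA member that differed most at 10 weeks. It was at 3.82, 7.46 and 10.6 RPM in WT-TRAMP, at 11.6, 11.1 and 13.7 RPM in KO-TRAMP and at 9.55, 9.60 and 19.5 RPM in A537T-TRAMP. All 3 KO-TRAMP libraries were above all 3 of WT-TRAMP, while A537T-TRAMP overlapped WT-TRAMP. In normalised counts KO-TRAMP had a mean of 135 ± 14.2 and WT-TRAMP one of 85.2 ± 40.4 (SD, n = 3), a difference of 0.78 on the log2(normalised count + 1) scale. In A537T-TRAMP the difference was 1.012.

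At 30 weeks no HoxA member passed the test in either line. On the log2 scale KO-TRAMP minus WT-TRAMP was −0.14 for Hoxa9 (SE 0.19, adjusted p = 0.722), −0.34 for Hoxa10 (SE 0.25, adjusted p = 0.512), 0.19 for Hoxa11 (SE 0.21, adjusted p = 0.646) and −0.27 for Hoxa13 (SE 0.19, adjusted p = 0.509) by limma with Benjamini-Hochberg adjustment over all genes tested. A537T-TRAMP minus WT-TRAMP was 0.11 for Hoxa9 (SE 0.26), 0.28 for Hoxa10 (SE 0.19), 0.41 for Hoxa11 (SE 0.24) and 0.01 for Hoxa13 (SE 0.19), with limma adjusted p-values of 0.947, 0.782, 0.751 and 0.995. Without libraries 12 and 18 the KO-TRAMP differences were −0.19 for Hoxa9, −0.27 for Hoxa10, 0.28 for Hoxa11 and −0.31 for Hoxa13. Without library 12, the one of the pair in the A537T-TRAMP comparison, those of A537T-TRAMP were 0.08, 0.30, 0.52 and −0.11. Exact two-sided permutation p-values for the 8 differences with all libraries ran from 0.2 to 1, and 3 libraries against 3 cannot go below 0.1.

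Hoxb13 had the highest RPM of the members in every library except library 5, where Tbx2 was higher, and it was lowest in libraries 5 and 17. At 10 weeks it was at 414, 344 and 299 RPM in WT-TRAMP, at 369, 239 and 298 RPM in KO-TRAMP and at 424, 67.5 and 219 RPM in A537T-TRAMP. Library 5 of A537T-TRAMP, at 67.5 RPM, was the lowest of the 18, and it was also the library with the largest seminal vesicle share (9.05%). It had the smallest summed share of 8 prostate secretory genes at that age (0.161%, against 1.25% to 3.30% in the others). Averaged gene by gene the 8 were not low there. Their mean log2(normalised count + 1) was 10.9 in library 5, against 8.88, 10.2 and 10.7 in WT-TRAMP. The lines overlapped, and KO-TRAMP differed from WT-TRAMP by −0.29 and A537T-TRAMP by −0.83 on the log2 scale. Mean normalised counts were 4097 ± 620 in WT-TRAMP and 3363 ± 671.5 in KO-TRAMP (SD, n = 3), read from one table, and 3724 ± 570 in WT-TRAMP and 2534 ± 1760 in A537T-TRAMP (SD, n = 3), read from the other.

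At 30 weeks Hoxb13 was at 186, 225 and 218 RPM in WT-TRAMP, at 262, 179 and 271 RPM in A537T-TRAMP and at 276, 87.1 and 157 RPM in KO-TRAMP. The KO-TRAMP libraries spanned the other lines, with library 16 the highest and library 17 the lowest of that age. KO-TRAMP had a mean normalised count of 1947 ± 1147 and WT-TRAMP one of 2430 ± 270 (SD, n = 3), a log2 difference of −0.49 (SE 0.42, limma adjusted p = 0.569), with an exact permutation p of 0.5. In A537T-TRAMP the difference was 0.20 (SE 0.17, limma adjusted p = 0.809), with an exact permutation p of 0.3. Without library 16 the KO-TRAMP difference was −0.93 (limma adjusted p = 0.0595), and without library 17 it was −0.05. Without libraries 12 and 18 it was −0.45, and without library 12 the A537T-TRAMP difference was 0.23.

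**Figure D2:**
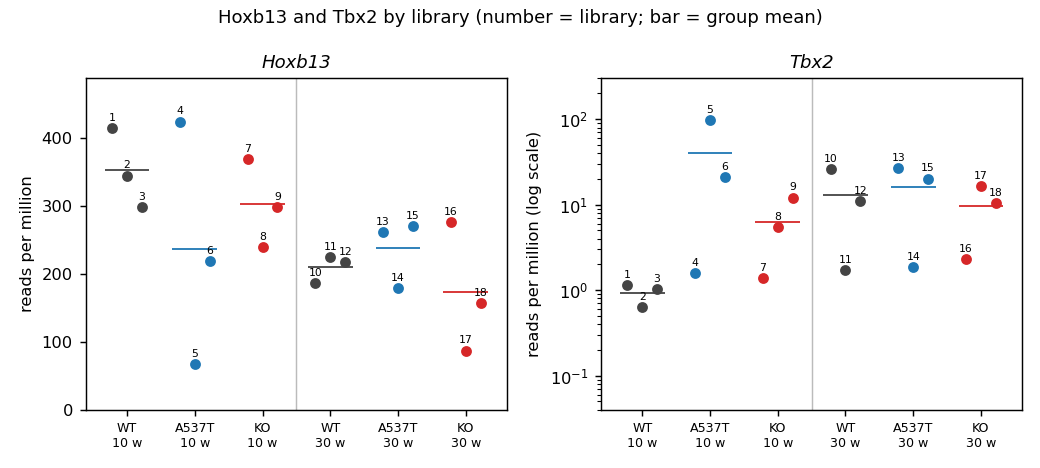
Hoxb13 (RPM, linear scale) and Tbx2 (RPM, log scale) in each of the 18 libraries, by line and age, with bars at the group means. Hoxb13 is lowest in library 5 (67.5 RPM) and library 17 (87.1 RPM), and Tbx2 is highest in library 5 (97.6 RPM).

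The HoxD members stood apart in KO-TRAMP at 30 weeks, where libraries 17 and 18 were above every other library of that age and library 16 was not. Hoxd13 was at 48.2 RPM in library 17, 33.4 RPM in library 18 and 2.94 RPM in library 16. In WT-TRAMP of that age it was at 4.41, 9.89 and 8.25 RPM, and in A537T-TRAMP at 3.56, 6.46 and 3.62 RPM. Libraries 17 and 18 were thus above every other library of that age, and library 16 was below every one. Library 18 was close to the weighted sum of libraries 16 and 17 for the HoxD members too. Its observed level was 1.11 times that sum for Hoxd13, 1.07 for Hoxd11, 1.00 for Hoxd10 and 1.10 for Hoxd9. Whether library 18 is high independently of library 17 was not tested, here or for the other genes high in both.

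Hoxd11 and Hoxd10 were likewise highest in libraries 17 and 18. Hoxd11 was at 48.7 RPM in library 17, 31.6 RPM in library 18 and 1.25 RPM in library 16, against 3.92, 2.53 and 2.65 RPM in WT-TRAMP and 2.07, 2.50 and 1.27 RPM in A537T-TRAMP. Hoxd10 was at 31.7, 19.5 and 1.33 RPM in libraries 17, 18 and 16, against 2.26, 1.31 and 1.47 RPM in WT-TRAMP and 0.926, 2.19 and 1.36 RPM in A537T-TRAMP. In reads, Hoxd10 had 470 in library 17, 203 in library 18 and 15 in library 16, so values outside libraries 17 and 18 rest on 12 to 31 reads each. A processed transcript, Gm28309, overlaps both genes on the same strand and shares 4.20% of the 31-base words of Hoxd10 and 10.3% of those of Hoxd11, and it was at 4.11 and 3.55 RPM in libraries 17 and 18.

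Hoxd9, the most anterior of the 4, was also highest in libraries 17 and 18, at 32.8 and 21.9 RPM, with 0.801 RPM in library 16. It differed from the other HoxD members in the remaining groups of 30 weeks, where it was at 4.80, 0.163 and 2.65 RPM in WT-TRAMP and at 5.06, 0.730 and 2.71 RPM in A537T-TRAMP. The 4 libraries among these that were above 1 RPM, libraries 10, 12, 13 and 15, were those with seminal vesicle shares of 1.90% to 5.45%, and the others had shares of at most 0.000313%.

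**Figure D3:**
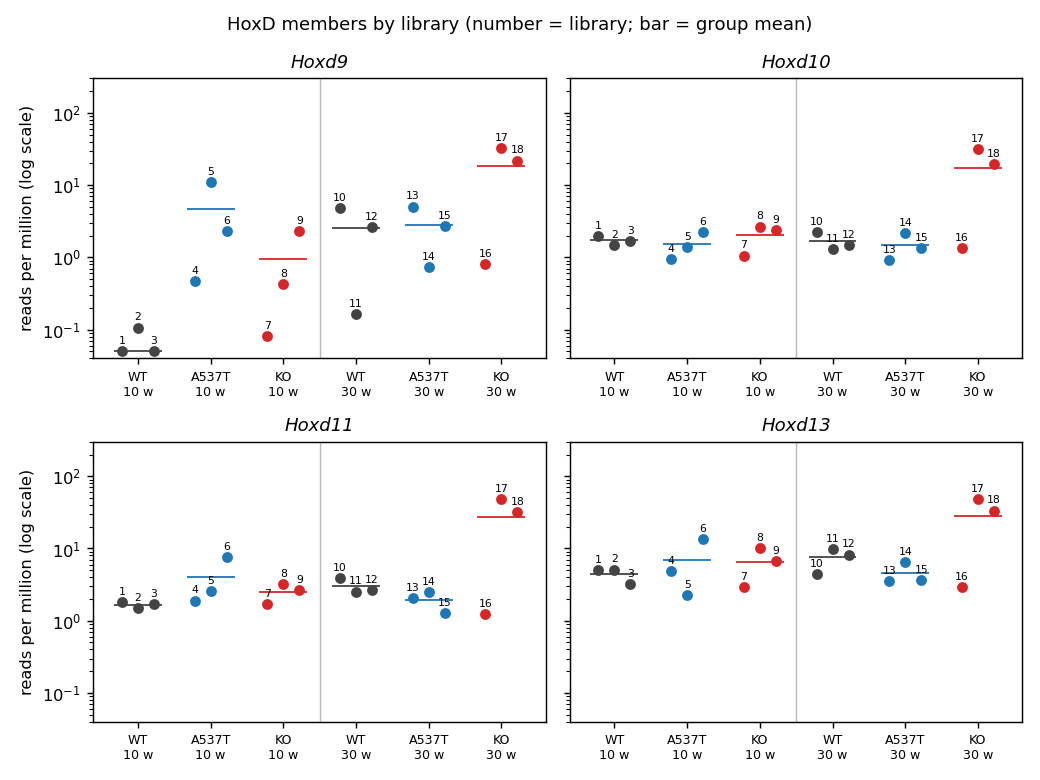
Hoxd9, Hoxd10, Hoxd11 and Hoxd13 (RPM, log scale) in each of the 18 libraries, by line and age, with bars at the group means and values under 0.05 RPM drawn at 0.05. Libraries 17 and 18 (19.5 to 48.7 RPM) lie above all other libraries for each of the 4 genes.

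By the test across all genes, no HoxD member was called in KO-TRAMP at 30 weeks. Means in normalised counts were 306 ± 249 in KO-TRAMP and 87.4 ± 33.7 in WT-TRAMP for Hoxd13, and 295 ± 259 and 35.1 ± 8.39 for Hoxd11 (SD, n = 3). They were 190 ± 165 and 19.4 ± 5.56 for Hoxd10, and 201 ± 176 and 29.2 ± 26.5 for Hoxd9. The log2 differences were 1.17 for Hoxd13 (SE 1.03, limma adjusted p = 0.575), 1.99 for Hoxd11 (SE 1.31, limma adjusted p = 0.479), 2.42 for Hoxd10 (SE 1.13, limma adjusted p = 0.393) and 2.47 for Hoxd9 (SE 1.69, limma adjusted p = 0.493). Exact permutation p-values were 0.4, 0.4, 0.3 and 0.3. Over the 10 members limma called 0 in this comparison, none had an unadjusted p under 0.05, and edgeR also called 0. Over all genes tested limma called 36 of 16900, or 0.213%, and edgeR 15, or 0.0888%. By limma 2289 of the 16900 had an unadjusted p under 0.05, the background for the unadjusted counts of the KO-TRAMP lists below. DESeq2 called 2 members, Hoxd10 (log2 3.28, adjusted p = 0.0176) and Hoxd11 (log2 3.06, adjusted p = 0.0423), beside 4.77% of all genes.

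The limma result for the HoxD members depended on which libraries were kept, and DESeq2 was not refitted with libraries left out. Without library 16, limma called Hoxd10 (log2 3.76, adjusted p = 0.00767), Hoxd11 (log2 3.59, adjusted p = 0.00702) and Hoxd13 (log2 2.39, adjusted p = 0.0213), while 18.1% of all genes were called as well. Hoxd9 then had a log2 difference of 4.08 (limma adjusted p = 0.0731). Fits without library 16 keep libraries 17 and 18 as the KO-TRAMP group and library 12 in WT-TRAMP. Libraries 12 and 18 lie close to sums of others, so the p-values of these fits may not measure the spread between mice. Without library 17 the differences were 1.57 for Hoxd10, 1.04 for Hoxd11, 0.43 for Hoxd13 and 1.52 for Hoxd9, and none was called. Without libraries 12 and 18 together, which leaves libraries 16 and 17 against 10 and 11, they were 1.85, 1.26, 0.80 and 2.24, and 0 members and 0% of all genes were called by limma. In that last fit 343 genes had an unadjusted p under 0.05.

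In A537T-TRAMP at 30 weeks each HoxD member overlapped WT-TRAMP and none was called by limma. The log2 difference was −0.64 for Hoxd13 (SE 0.38, limma adjusted p = 0.749), −0.53 for Hoxd11 (SE 0.37, limma adjusted p = 0.788), −0.15 for Hoxd10 (SE 0.45, limma adjusted p = 0.963) and 0.59 for Hoxd9 (SE 1.19, limma adjusted p = 0.938), with exact permutation p-values of 0.2 to 0.8. Without library 12 these differences were −0.54, −0.61, −0.22 and 1.04. Limma and edgeR called 0 of the 10 members in this comparison, and none had an unadjusted p under 0.05. Over all 16261 genes tested both tools called 0%, with 1173 genes at an unadjusted p under 0.05 by limma, and DESeq2 called 0 members beside 1.02% of all genes. The median log2 difference over the members was 0.16 here and 0.03 in KO-TRAMP, against 0.00 and 0.01 over all genes tested.

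At 30 weeks none of the 10 members separated the lines without overlap in either comparison. Over all genes tested, KO-TRAMP lay wholly above WT-TRAMP for 10.8% and wholly below for 9.48%. For A537T-TRAMP the shares were 7.36% and 6.03%.

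The high levels in libraries 17 and 18 extended over the HoxD cluster. Hoxd12, between Hoxd13 and Hoxd11, was at 13.01 and 6.81 RPM in libraries 17 and 18 and at 0.0890 to 1.80 RPM in the others. Hoxd8, the next gene after Hoxd9, was at 139 and 77.9 RPM, and Hoxd4 at 52.9 and 30.4 RPM. These more anterior genes were also high outside libraries 17 and 18, with Hoxd8 at 34.9 RPM in library 5, 23.3 RPM in library 10 and 20.2 RPM in library 13. Hoxd3 did not follow, at 0.405 and 0.672 RPM in libraries 17 and 18 and 5.71 RPM in library 5. Evx2, the homeobox gene beyond Hoxd13, was at 4.99 and 3.07 RPM against 0.0865 to 1.37 RPM elsewhere. Of the genes that flank the cluster, Lnpk was at 65.7 and 56.2 RPM (16.9 to 49.1 elsewhere) and Mtx2 at 53.5 and 45.1 RPM (15.5 to 31.8 elsewhere). The genes further out did not stand apart, with Atf2 at 65.9 and 84.2 RPM (56.9 to 97.5 elsewhere) and Atp5g3 at 84.1 and 78.1 RPM (35.5 to 86.8 elsewhere). These neighbours were chosen after the values had been seen.

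**Figure D4:**
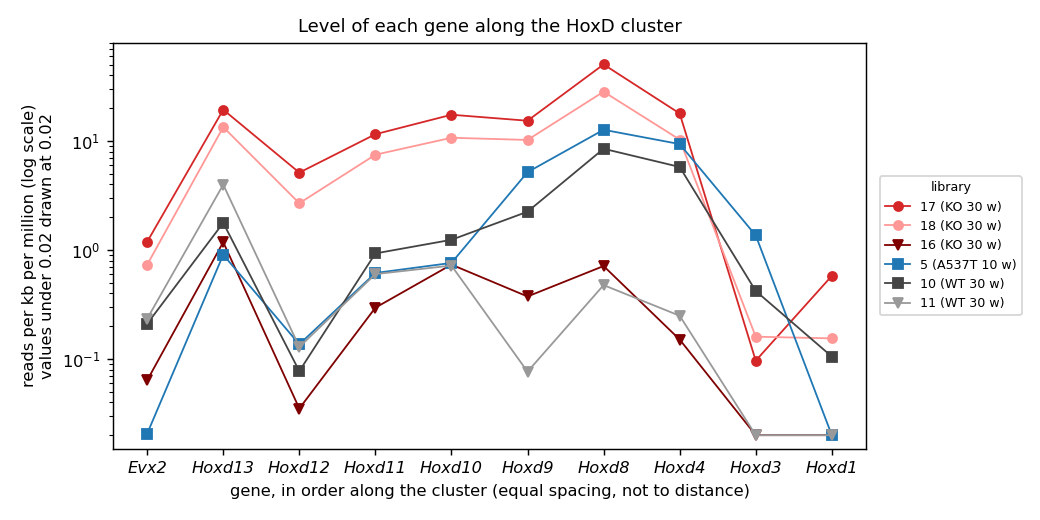
Level per exon length (RPKM, log scale) of the genes of the HoxD cluster in chromosomal order from Evx2 to Hoxd1, in libraries 16, 17 and 18 (KO-TRAMP, 30 weeks), 10 and 11 (WT-TRAMP, 30 weeks) and 5 (A537T-TRAMP, 10 weeks), with values under 0.02 RPKM drawn at 0.02. Libraries 17 and 18 are the highest at every gene drawn except Hoxd3, where library 5 is the highest. Library 5 is high from Hoxd9 to Hoxd3 but not at Hoxd10 to Hoxd13.

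Other clusters did not share the pattern of libraries 17 and 18. The 4 HoxD members made up 84.7% of the summed RPKM of the HoxA and HoxD members in library 17 and 77.02% in library 18, against 13.1% to 37.2% in the other 16 libraries. Hoxa10 was lowest of its age in library 17, and Hoxb13 was lowest of its age there too.

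Neuroendocrine markers were high in the same libraries as the HoxD members. The summed share of 10 neuroendocrine genes was 0.161% in library 17 and 0.101% in library 18, against 0.00261% in library 16, 0.00280% to 0.0283% in WT-TRAMP of 30 weeks and at most 0.00970% in the other libraries. Chga, which encodes the granule protein chromogranin A, was at 594 and 368 RPM in libraries 17 and 18 and at 0.0890 RPM in library 16. In library 16, 6 of the 10 genes were at 0, and in libraries 17 and 18 none was. By limma 0 of the 9 neuroendocrine genes tested in KO-TRAMP at 30 weeks were called, with 0 at an unadjusted p under 0.05, 0 called by edgeR and 1 by DESeq2. The part of neuroendocrine cells in the HoxD values was not tested. The seminal vesicle share was 0.000701% in library 17, where the HoxD members were highest, with none of its 9 genes above 2.16 RPM.

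At 10 weeks Hoxd13 reached its highest levels in library 6 of A537T-TRAMP and library 8 of KO-TRAMP, and Hoxd10 was low in all lines. Hoxd13 was at 5.04, 5.12 and 3.19 RPM in WT-TRAMP, 2.94, 10.1 and 6.64 RPM in KO-TRAMP and 4.89, 2.25 and 13.5 RPM in A537T-TRAMP. Hoxd10 was at 1.99, 1.49 and 1.69 RPM in WT-TRAMP, 1.06, 2.67 and 2.41 RPM in KO-TRAMP and 0.947, 1.38 and 2.22 RPM in A537T-TRAMP. The lines overlapped for both. Log2 differences from WT-TRAMP were 0.35 and 0.39 for Hoxd13 and 0.09 and −0.15 for Hoxd10, in KO-TRAMP and A537T-TRAMP.

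Hoxd11 was at 1.83, 1.49 and 1.69 RPM in WT-TRAMP and at 1.71, 3.18 and 2.66 RPM in KO-TRAMP, which overlapped, with a log2 difference of 0.47. In A537T-TRAMP it was at 1.89, 2.59 and 7.62 RPM, with all 3 libraries above WT-TRAMP and a log2 difference of 1.19.

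Hoxd9 was nearly absent from WT-TRAMP at 10 weeks. Libraries 1 and 3 had 0 reads, which allows up to 0.229 and 0.281 RPM (3 reads, counting error only), and library 2 had 1 read, or 0.107 RPM. KO-TRAMP was at 0.0816, 0.430 and 2.32 RPM, overlapping WT-TRAMP, and A537T-TRAMP at 0.474, 11.1 and 2.33 RPM, above all of WT-TRAMP. Summed over the 3 libraries of a group, Hoxd9 had 156 reads in A537T-TRAMP against 1 in WT-TRAMP, a ratio of 153 per read sequenced with an exact 95% interval of 27.1 to 6101 for counting error only. The KO-TRAMP ratio was 31.4, from 34 reads against 1, with an interval of 5.26 to 1275. Single libraries held most of these reads, 128 of the 156 in library 5 and 28 of the 34 in library 9. Without library 5 the A537T-TRAMP ratio was 42.0 (6.94 to 1715), and without library 9 the KO-TRAMP ratio was 8.33 (1.011 to 383). All these intervals leave out the spread between mice and are not a test of the lines.

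Tbx2 varied widely. At 10 weeks it was at 1.15, 0.640 and 1.03 RPM in WT-TRAMP, or 6 to 15 reads, at 1.39, 5.42 and 12.1 RPM in KO-TRAMP and at 1.58, 97.6 and 21.0 RPM in A537T-TRAMP. Both mutant lines lay wholly above WT-TRAMP, though libraries 4 and 7 were within 1 RPM of it. The mean normalised count was 70.4 ± 59.9 in KO-TRAMP against 10.9 ± 3.00 in WT-TRAMP (SD, n = 3), a log2 difference of 2.15. It was 497 ± 658 in A537T-TRAMP against 10.3 ± 3.06 in WT-TRAMP (SD, n = 3), a log2 difference of 3.95. These are the values by which Tbx2 was chosen, and the differences used the same 3 WT-TRAMP mice.

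Counting the members that lay wholly above WT-TRAMP at 10 weeks gave 2 of the 9 that passed the filter on low counts in KO-TRAMP (Hoxa9 and Tbx2), beside 5.77% of all genes tested, and 3 of 10 in A537T-TRAMP (Hoxd9, Hoxd11 and Tbx2), beside 6.92%. None lay wholly below, beside 6.26% and 6.53%. Hoxd9 did not pass the filter in KO-TRAMP. Because the list was drawn up with these contrasts in view, nothing is read from the counts.

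At 30 weeks Tbx2 no longer separated the lines. WT-TRAMP was at 26.3, 1.72 and 11.1 RPM, A537T-TRAMP at 26.8, 1.88 and 20.2 RPM and KO-TRAMP at 2.31, 16.5 and 10.4 RPM. Each line had libraries on both sides of the others, and library 10 of WT-TRAMP was as high as the highest A537T-TRAMP library. The mean normalised count was 106 ± 76.1 in KO-TRAMP against 149.6 ± 141 in WT-TRAMP (SD, n = 3), a log2 difference of −0.18 (SE 1.13, limma adjusted p = 0.940, exact permutation p = 0.9). In A537T-TRAMP it was 184 ± 147 against 151 ± 144 in WT-TRAMP (SD, n = 3), a log2 difference of 0.30 (SE 1.24, limma adjusted p = 0.975, exact permutation p = 0.7). The sign of both differences turned when single libraries were left out. Without libraries 12 and 18 the KO-TRAMP difference was −0.18, and without library 12 the A537T-TRAMP difference was 0.54.

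Tbx2 was high in the libraries in which seminal vesicle genes made up over 1% of reads, in all 3 lines. Library 5, with the largest share at 10 weeks (9.05%), had the highest Tbx2 (97.6 RPM), followed at that age by library 6 (1.26%, 21.0 RPM), library 9 (1.63%, 12.1 RPM) and library 8 (0.0522%, 5.42 RPM), while library 4, with a share near that of library 8 (0.0487%), was at 1.58 RPM. At 30 weeks libraries 13, 10, 15 and 12, with shares of 5.45%, 4.35%, 2.65% and 1.90%, were at 26.8, 26.3, 20.2 and 11.1 RPM, and libraries 11 and 14, with shares of at most 0.000313%, at 1.72 and 1.88 RPM. In KO-TRAMP at 30 weeks the order was the reverse, with library 17 at 16.5 RPM and a share of 0.000701%, library 18 at 10.4 RPM and 0.107%, and library 16 at 2.31 RPM and 0.267%. Averaged gene by gene, library 16 was not low in seminal vesicle genes. The mean log2(normalised count + 1) of the 9 genes was 10.9 there and 10.7 in library 12, whose Tbx2 was at 11.1 RPM. The WT-TRAMP libraries of 10 weeks had the lowest Tbx2 and shares of at most 0.000459%. Hoxd9 was also highest in the libraries of the largest shares, apart from libraries 17 and 18, while Hoxd10 stayed at 0.926 to 2.67 RPM in all libraries but 17 and 18. Smooth muscle genes (10 listed, all tested) were also higher in the mutant lines at 10 weeks. Their summed shares were 0.0423% to 0.0694% in WT-TRAMP, 0.0794% to 0.122% in KO-TRAMP and 0.105% to 0.240% in A537T-TRAMP. By library they followed Tbx2 only in part. Libraries 5 and 6 were highest in both, but libraries 4, 9 and 8, with shares of 0.105%, 0.115% and 0.122%, had Tbx2 at 1.58, 12.1 and 5.42 RPM. At that age 6 of the 10 smooth muscle genes lay wholly above WT-TRAMP in KO-TRAMP and 10 of 10 in A537T-TRAMP. The shares of all genes were the 5.77% and 6.92% given above. At 30 weeks the smooth muscle shares overlapped, from 0.0695% to 0.362% over the 9 libraries, the highest in library 17. The part of either tissue in the Tbx2 values was not tested.

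**Figure D5:**
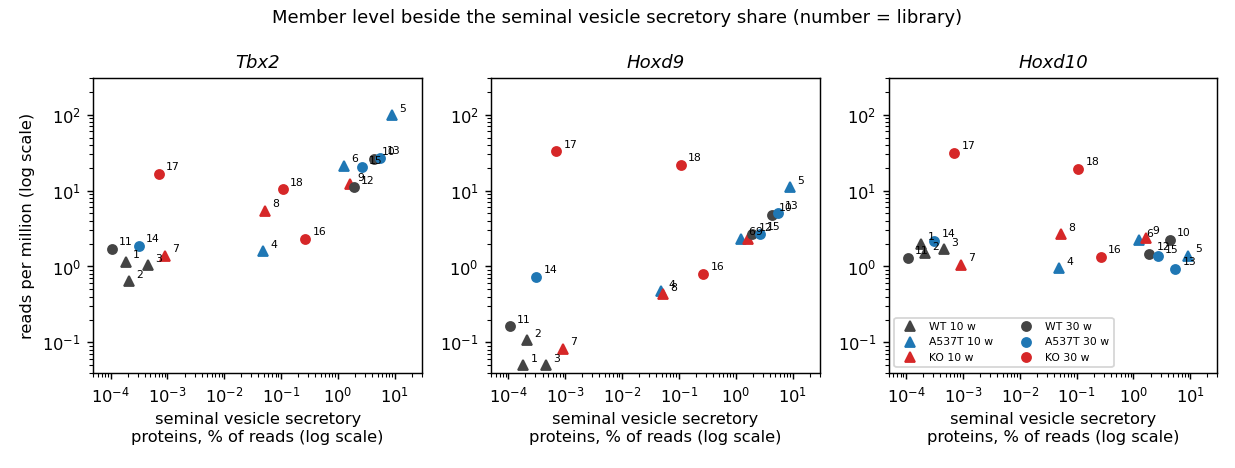
Tbx2, Hoxd9 and Hoxd10 (vertical, RPM, log scale) against the share of reads in 9 seminal vesicle secretory genes (horizontal, percent, log scale), 1 point per library, with values under 0.05 RPM drawn at 0.05. Tbx2 and Hoxd9 are highest at the right, apart from libraries 17 and 18, and Hoxd10 is flat apart from these.

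The genes whose levels ran most like those of Tbx2 over the 18 libraries, by Pearson's r on log2(RPM + 1) among 10055 genes, were Mecom (0.969), Unc5b (0.961), Slc4a8 (0.930), Bpgm (0.928) and Ppp1r12b (0.927). For Hoxb13 they were Sgpp1 (0.978), Asl (0.971), Slc10a5 (0.971), Fam174b (0.971) and P2rx6 (0.970). These are descriptions over libraries that differ in tissue make-up, and libraries 12 and 18 lie close to sums of others.

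The other Hox genes gave a different picture in KO-TRAMP at 30 weeks. Of 30 listed, 15 passed the filter, 5 of them higher and 10 lower, with a median log2 difference of −0.94. Those with the smallest p were Hoxa3 (−0.94, limma adjusted p = 0.332), Hoxb5 (−1.16, limma adjusted p = 0.343) and Hoxb6 (−1.74, limma adjusted p = 0.349). None was called by limma, edgeR or DESeq2, and 3 had an unadjusted p under 0.05 by limma. In A537T-TRAMP 14 were tested, 5 higher and 9 lower, with a median of −0.06, and none was called by any of the 3 tools or had an unadjusted p under 0.05. The smallest p-values there belonged to Hoxa7 (log2 0.50), Hoxb5 (−0.24) and Hoxb2 (0.76).

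The cofactors that bind DNA with Hox proteins, the Pbx, Meis and Pknox families, were all 9 expressed and tested. In KO-TRAMP at 30 weeks 6 were higher and 3 lower, among them Meis2 (log2 −0.54, limma adjusted p = 0.343) and Meis3 (0.56). In A537T-TRAMP 1 was higher and 8 lower, among them Pbx3 (−1.13, limma adjusted p = 0.706) and Pbx2 (−0.07). No cofactor was called by limma, edgeR or DESeq2 in either line, and 1 in KO-TRAMP and 0 in A537T-TRAMP had an unadjusted p under 0.05 by limma. Of the 10 antisense RNAs of the Hox clusters in the tables, 1 passed the filter, Hoxa11os, which lies antisense to Hoxa11. Its log2 difference was −0.69 in KO-TRAMP (limma adjusted p = 0.373) and 0.12 in A537T-TRAMP (limma adjusted p = 0.931), and it was called by none of the 3 tools and had no unadjusted p under 0.05.

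Of 16 other T-box genes, 7 were tested in KO-TRAMP at 30 weeks (4 higher, 3 lower) and 5 in A537T-TRAMP (1 higher, 4 lower), and none was called by limma, edgeR or DESeq2. Tbx3, the closest relative of Tbx2, was more abundant, at 139 to 304 RPM over the 18 libraries, with a log2 difference of −0.43 for KO-TRAMP and −0.17 for A537T-TRAMP. The smallest p-values belonged to Tbx4 (1.51, limma adjusted p = 0.424), Tbx3 and Mga (−0.10) in KO-TRAMP. In A537T-TRAMP they belonged to Tbx1 (−0.94, limma adjusted p = 0.684), Tbx3 and Tbx6 (−0.39). By limma 0 in KO-TRAMP and 1 in A537T-TRAMP had an unadjusted p under 0.05.

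Among 9 genes listed as repressed by Tbx2, 8 were tested in KO-TRAMP at 30 weeks (6 higher, 2 lower) and 6 in A537T-TRAMP (5 higher, 1 lower). In KO-TRAMP Gja5, a connexin, had a log2 difference of 2.38 (limma adjusted p = 0.281), Gja1, which encodes connexin 43, 1.28 (limma adjusted p = 0.345) and Ndrg1 0.87 (limma adjusted p = 0.438). In A537T-TRAMP Gja1 had 0.89 (limma adjusted p = 0.691), and the cell cycle inhibitors Cdkn2a and Cdkn1a had 0.20 and −0.10. Limma and edgeR called 0 of the list in both lines, with 2 and 1 at an unadjusted p under 0.05 by limma, and DESeq2 called Gja5 in KO-TRAMP alone.

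Of 20 regulators of the urogenital sinus and ducts, 18 were tested in KO-TRAMP at 30 weeks, 5 higher and 13 lower, with a median log2 difference of −0.57. Gata2 (log2 −1.12, limma adjusted p = 0.136) and Gata3 (−0.70, limma adjusted p = 0.252) are zinc finger factors of the urogenital epithelium. Limma and edgeR called 0 and DESeq2 called 5, with 7 at an unadjusted p under 0.05 by limma. Among the 5 called by DESeq2 were Gata2, Gata3 and Emx2, which were lower, and Foxa2, which was higher. In A537T-TRAMP 17 were tested, 8 higher and 9 lower, and none was called by the 3 tools, with 2 at an unadjusted p under 0.05. Ptch1 (log2 −0.25, limma adjusted p = 0.684) was among those with the smallest p-values there. Emx2, a gene of the urogenital ducts, was at 46.3 RPM in library 5, 14.8 RPM in library 13 and 12.0 RPM in library 10, the libraries of the largest seminal vesicle shares.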

How the data were processed

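RNA-seq was made from ventral and lateral lobes of the prostate of 18 mice. The authors trimmed reads with Trim Galore 0.4.1 and cutadapt 1.18, aligned them with STAR 2.7.3a to GRCm38, quantified genes with Salmon using strand and normalised them with DESeq2 1.26. They deposited 4 tables of normalised counts, a signal in which each library's estimated reads were divided by its own size factor, computed separately in each table of 6 libraries. All values (100%, tolerance 0.01) were whole multiples of 1 step per library, which gave whole reads, between 9380174 and 14830104 per library. The 3 WT-TRAMP libraries of an age differ between their tables, with 30.9% to 37.6% of genes identical in reads, so lines were tested only within a table. RPM and RPKM used each library's total and exon lengths from a GENCODE release older than that of the study, and WT-TRAMP values in RPM are those of the table shared with KO-TRAMP. The authors' own comparison tables hold fold changes, their SD and s-values and were not used. Of the gene IDs, 55107 had a symbol.

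Each line was compared with WT-TRAMP of its age by limma 3.58.1 (lmFit, eBayes with trend, two-sided) in R 4.3.3 on log2(normalised count + 1), over genes with a mean of at least 10, with p-values adjusted by Benjamini-Hochberg and called under 0.05. Such log2 differences understate the change of low genes. Exact two-sided permutation was run for single genes. Alternatives were pseudocounts of 0.5 and 5, no filter, TMM scaling, edgeR 4.0.16 and DESeq2 1.42.0 on recovered reads, and leaving out each library. Leaving out libraries 12 and 18 together, and libraries 5 and 9 from the Hoxd9 read ratios, was added after seeing the data. The limma fit alone was tried on simulated data, in which all libraries were independent. The sample titles number the replicates of each group, and the paper describes its replicates as biological.

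The members and lists were chosen with earlier results of these data known. Named were the 10 members, up to 3 genes of smallest p per list and comparison at 30 weeks (some of them are not reported here), and the 5 genes most correlated with Tbx2 and with Hoxb13 among those with at least 10 RPM on average. HoxD neighbours, marker genes and the genes that DESeq2 called were named after their values were seen. Motifs and CG dinucleotides were counted in RefSeq promoter windows, and shared sequence in words of 31 bases.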

Additional observations from a re-analysis of the deposited data

Results flagged for a closer look

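Hoxd11 in A537T-TRAMP lay on opposite sides of the WT-TRAMP mean at the 2 ages. All 3 A537T-TRAMP libraries were above the WT-TRAMP mean at 10 weeks, by 1.19 on the log2 scale, and all 3 were below it at 30 weeks, where the difference was −0.53 (limma adjusted p = 0.788). The lines overlapped at 30 weeks, where library 14 (28.6 normalised counts) was above the WT-TRAMP libraries 11 and 12 (26.9 and 27.7). The difference between the ages was −1.72. It was not tested, because the 10-week contrast was used in choosing the genes. Its values rest on 14 to 72 reads per library.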

How the results depend on the processing

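No paired analysis was possible because the table headers carry library numbers and no replicate number that would match a mouse across groups. At 10 weeks limma called 2 genes in KO-TRAMP (edgeR 0, DESeq2 81, leaving out single libraries 1 to 9) and 1 in A537T-TRAMP (pseudocount 0.5 gave 0, edgeR 0, DESeq2 148, single libraries 0 to 65, the highest without library 4). At 30 weeks it called 36 genes in KO-TRAMP (edgeR 15, DESeq2 805, without libraries 12 and 18 together 0). Leaving out single libraries gave 0 to 3064, with 0 without library 10, 12 or 18, 2 without library 11, 3064 without library 16 and 13 without library 17. For A537T-TRAMP at 30 weeks the count was 0 (DESeq2 165, single libraries 0 to 145, the highest without library 11). Of the 10 members in KO-TRAMP at 30 weeks limma called 0, DESeq2 2, and leaving out single libraries 0 to 3, the 3 without library 16.

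Differences that turned sign were never called in either direction. For Tbx2 the log2 difference in KO-TRAMP at 30 weeks ran from −1.26 to 0.66 over single libraries left out, positive without library 10 (0.66), 12 (0.05) or 16 (0.61), and in A537T-TRAMP from −0.79 to 1.48, negative without library 11 (−0.79), 13 (−0.41) or 15 (−0.17). In A537T-TRAMP at 30 weeks Hoxd10 ran from −0.46 to 0.12, Hoxd9 from −0.71 to 1.45, Hoxa13 from −0.13 to 0.11 and Hoxa9 from −0.16 to 0.33. The cause of these changes was not tested. With 3 libraries a group and 2 of the 30-week libraries close to sums of others, the spread of a group is itself poorly known, and HoxD genes outside libraries 17 and 18 rest on few reads.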
